A study of Mus musculus with 14 samples.

Results

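The peroxiredoxins and thioredoxins of aged mouse ovary and uterus are described here as a set of 8 genes, Prdx1, Prdx2, Prdx3, Prdx4, Prdx5, Prdx6, Txn1 and Txn2, which were chosen by name as the peroxiredoxin family and the cytosolic and mitochondrial thioredoxins. All 8 were found among the 21853 genes of the RNA-seq tables and all 8 passed the filter on low values in both tissues. The libraries came from ovaries and uteruses of female C57BL/6J mice that were 28 weeks old. The old control (OC) group of 3 mice received saline, and the old treatment (OT) group of 4 mice received AMSC-CM, a medium conditioned by human amniotic membrane mesenchymal stem cells and pooled from 3 donors, at 1 µL per g through the tail vein in 6 injections 4 days apart. Every mouse, OC included, had first been given PMSG and hCG, 10 IU of each and 48 h apart. This made 14 libraries in 4 groups, with the ovary and the uterus of one number taken as the organs of one mouse.

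Peroxiredoxins are enzymes that reduce hydrogen peroxide and organic peroxides with a peroxidatic cysteine, which is oxidised by the peroxide in each catalytic cycle. Prdx1 and Prdx2 are cytosolic, Prdx3 is mitochondrial, Prdx4 works in the endoplasmic reticulum, Prdx5 is found in mitochondria, peroxisomes and cytosol, and Prdx6 also has phospholipase activity and uses glutathione in place of thioredoxin. Thioredoxins, Txn1 in the cytosol and Txn2 in mitochondria, return most oxidised peroxiredoxins to the reduced form through a pair of cysteines, and are themselves reduced by thioredoxin reductases with NADPH. Steroid-producing cells of the ovary are rich in mitochondria, where Prdx3, Prdx5 and Txn2 act.

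The members lie on 6 chromosomes. In mm10 coordinates Prdx1 (ENSMUSG00000028691.12) is at chr4:116685544-116700822 and Txn1 (ENSMUSG00000028367.5) at chr4:57943373-57956411. Prdx3 (ENSMUSG00000024997.7) is at chr19:60864051-60874556 and Prdx5 (ENSMUSG00000024953.17) at chr19:6906697-6910106. Prdx2 (ENSMUSG00000005161.15) is at chr8:84969587-84974834, Prdx4 (ENSMUSG00000025289.15) at chrX:155323918-155340754, Prdx6 (ENSMUSG00000026701.15) at chr1:161240112-161251219 and Txn2 (ENSMUSG00000005354.16) at chr15:77915047-77929006. Prdx1 and Prdx2 are on the plus strand and the other 6 on the minus strand.

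The active sites show what the family shares and where its branches part. The coding sequence around the catalytic cysteines is given below 5′ to 3′ on the coding strand, from the principal GENCODE M21 transcript of each gene, with the cysteine codons in capitals. In Prdx1 to Prdx4 the stretch before the cysteine codon differs by few bases, and it differs more in Prdx5 and Prdx6. The peroxidatic cysteine is codon 52 of 199 in Prdx1, 51 of 198 in Prdx2, 109 of 257 in Prdx3, 127 of 274 in Prdx4, 96 of 210 in Prdx5 and 47 of 224 in Prdx6, and the later positions in Prdx3, Prdx4 and Prdx5 belong to proteins made with a leader peptide. The cysteine pair is at codons 32 and 35 of 105 in Txn1 and at codons 90 and 93 of 166 in Txn2.
Prdx1: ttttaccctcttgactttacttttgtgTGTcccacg
Prdx2: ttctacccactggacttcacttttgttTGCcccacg
Prdx3: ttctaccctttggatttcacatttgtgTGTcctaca
Prdx4: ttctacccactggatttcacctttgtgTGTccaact
Prdx5: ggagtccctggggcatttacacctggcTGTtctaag
Prdx6: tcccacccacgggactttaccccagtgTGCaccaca
Txn1: gctacgtggTGTggacctTGCaaaatg
Txn2: gcacagtggTGTggccccTGCaagatc

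The sites are exonic and lie at chr4:116691796-116691831 in Prdx1 (exon 3), chr8:84970456-84970491 in Prdx2 (exon 3), chr19:6907982-6908017 in Prdx5 (exon 2), chr1:161247362-161247397 in Prdx6 (exon 2) and chr4:57951815-57951841 in Txn1 (exon 2). An intron interrupts the other windows. Their ends are at chr19:60870121-60871436 for Prdx3 (exons 3 and 4), chrX:155332454-155334854 for Prdx4 (exons 2 and 3) and chr15:77924645-77927696 for Txn2 (exons 2 and 3).

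Close copies of some members exist in the genome. Of the 50-base words in the principal Prdx1 transcript, 29.5% also occurred in transcripts of 3 pseudogenes, against 9.65% for Prdx2 (2 pseudogenes), 2.495% for Txn1 (1 pseudogene) and 0.299% for Prdx6 (1 other protein-coding gene). Prdx3, Prdx4, Prdx5 and Txn2 shared none. How reads in the shared stretches were divided is not given in the sources used here, so the Prdx1 and Prdx2 levels carry that uncertainty.

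Promoters were found in the RefSeq table (GRCm38.p6) for 7 of the 8 members, with no entry for Prdx6. The 250 bases before the start are shown for Prdx1, the member with the highest level, for Prdx3, which differed most between the tissues, and for Txn2, which was the highest above its ovary level in the uterus. They lie at chr4:116685349-116685598 on the plus strand, chr19:60874539-60874788 on the minus strand and chr15:77928995-77929244 on the minus strand. Capitals mark matches on either strand to any of the 7 motifs searched.
Prdx1: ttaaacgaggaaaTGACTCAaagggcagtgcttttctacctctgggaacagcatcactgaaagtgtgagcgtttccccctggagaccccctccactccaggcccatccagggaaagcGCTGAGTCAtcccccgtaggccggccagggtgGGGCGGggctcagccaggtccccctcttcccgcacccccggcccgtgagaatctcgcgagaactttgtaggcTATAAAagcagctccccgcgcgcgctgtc
Prdx3: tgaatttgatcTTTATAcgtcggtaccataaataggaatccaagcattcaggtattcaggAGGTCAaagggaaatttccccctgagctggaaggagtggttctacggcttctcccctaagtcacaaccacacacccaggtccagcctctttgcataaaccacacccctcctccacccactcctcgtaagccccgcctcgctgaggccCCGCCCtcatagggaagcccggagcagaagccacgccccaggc
Txn2: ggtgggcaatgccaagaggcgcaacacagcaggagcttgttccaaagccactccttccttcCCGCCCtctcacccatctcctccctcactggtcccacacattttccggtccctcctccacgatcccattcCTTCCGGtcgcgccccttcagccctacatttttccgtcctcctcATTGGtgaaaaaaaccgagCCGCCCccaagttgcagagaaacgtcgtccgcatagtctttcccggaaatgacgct

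The GC box (GGGCGG) was present in 6 of the 7 member promoters, all but that of Prdx2, and in 32.7% of all 32851 promoters of the table. A TPA response element (TGANTCA) was found only in Prdx1 among the 7, at positions -237 and -131 from the start, against 6.75% of all promoters. The second of these overlaps a match to the core of the antioxidant response element (TGACNNNGC), the letters bound by the stress factor Nrf2, which was in 1 of 7 member promoters and in 10.2% of all. The TATA box (TATAAA) was in 3 of 7 and 12.4% of all, with the Prdx1 match at -29. The ETS core (CCGGAAG) was in 2 of 7 (Prdx5 and Txn2) and 6.91%, the CCAAT box (CCAAT) in 2 of 7 (Prdx4 and Txn2) and 33.8%, and AGGTCA, the core bound by many nuclear receptors, in 1 of 7 (Prdx3, at -190) and 14.02%. These are matches of letters and no binding was measured.

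Expression was deposited in FPKM, which scales fragments to the length of the transcript and to the mapped fragments of the library and so allows genes to be compared per length. The total FPKM was 374816 to 397644 in the ovaries and 425875 to 471907 in 6 of the uteruses, but 577494 in the OT1 uterus. That library stands apart from the rest in other ways too. In it, genes averaging 10 FPKM or more whose median transcript length was under 1000 bases had a median log2 difference of 0.42 from the OC mean, and genes of 5000 bases or more a median of -0.37. The corresponding pair was 0.12 and -0.13 in OT2, 0.09 and -0.05 in OT3 and -0.03 and -0.01 in OT4. It also held Ucp1, the defining transcript of brown fat, at 209.9 FPKM, where the other uteruses had at most 0.11. The main differences of the members, of the lists of partner genes and of the length classes are therefore also given without the OT1 mouse.

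All members were abundant transcripts in both organs. Their means lay at the 87.2 to 99.0 percentile of tested genes for the ovary and at the 89.9 to 98.3 percentile for the uterus. In the ovary (n = 7) the order was Prdx1 (322 ± 18.9 FPKM, mean ± SD), Prdx2 (238 ± 21), Prdx3 (136 ± 8.58), Txn1 (107 ± 5.60), Prdx5 (79.9 ± 6.75), Prdx6 (65.7 ± 5.30), Txn2 (39.9 ± 3.44) and Prdx4 (39.1 ± 3.34). Each gene was above the next in 7 of 7 libraries except Txn2, which exceeded Prdx4 in 4 of 7, so these last members could not be ordered.

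In the uterus (n = 7) the order was Prdx1 (217 ± 50.4 FPKM), Prdx2 (132 ± 26.1), Prdx5 (107 ± 29.5), Txn1 (95.7 ± 23.5), Prdx3 (59.8 ± 21.5), Txn2 (58.1 ± 15.0), Prdx6 (54.4 ± 8.81) and Prdx4 (51.0 ± 9.08). The leading pair kept its place, while Prdx5 moved up to the third rank and Prdx3 down to the fifth. Prdx5 exceeded Txn1 in 5 of 7 libraries, and from Prdx3 downwards each gene exceeded the next in only 4 of 7. Neighbours in the lower ranks could therefore not be ordered, and genes further apart were not compared.

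**Figure D1:**
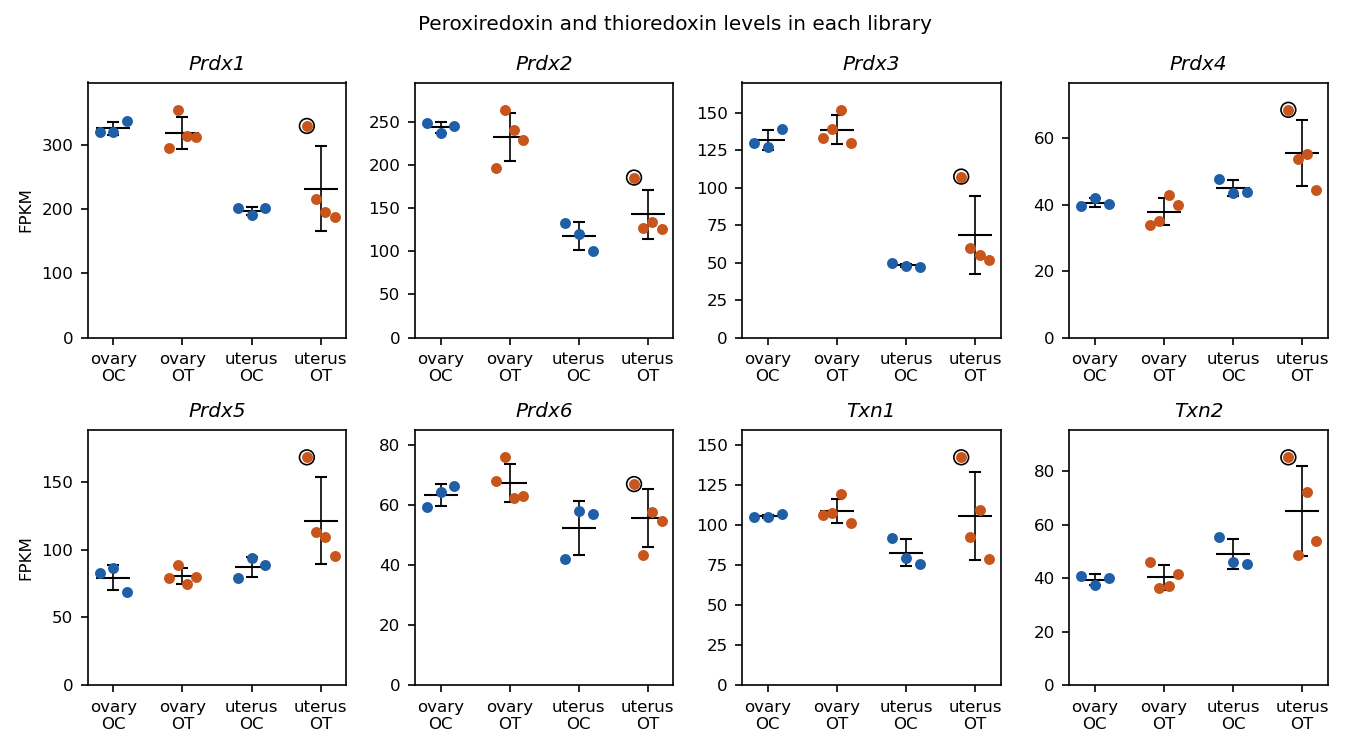
FPKM of each member (y axis, linear from 0, one panel a gene) in the OC (blue) and OT (orange) libraries of ovary and uterus, with the mean and SD of each group in black and the OT1 uterus circled. Prdx1 is the highest member in both organs, and the OT1 uterus is the highest of the 7 uteruses in all 8 panels.

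The ovary and the uterus differed in 7 of the 8 members. The cytosolic pair and the mitochondrial Prdx3 were higher in the ovary, and Prdx4, Prdx5 and Txn2 were higher in the uterus, on the scale as deposited. At an adjusted p under 0.05 (limma over 14557 genes, 14 libraries), 4 members were lower in the uterus against 26.8% of all genes, and 3 were higher against 26.1% of all genes. This fit held no term for the mouse, and an alternative fit with such a term changed none of these calls. Differences between these organs were thus common among all genes. Without the OT1 mouse 5 members were lower, against 30.2% of all genes, and 3 were higher, against 29.5%. In whole organs fewer cells of a type and less RNA per cell cannot be told apart, which holds for each level given here.

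Prdx3, the mitochondrial peroxiredoxin, showed the widest difference. Its ovary values were 129.7, 127.1 and 139.4 FPKM in OC1 to OC3 and 133.4, 139.4, 152.1 and 130.3 in OT1 to OT4. Its uterus values were 49.5, 47.6 and 47.4 in OC1 to OC3 and 107.5, 59.5, 55.3 and 51.6 in OT1 to OT4. Every ovary was above every uterus, and 6 of the uteruses lay in a narrow band well below the OT1 uterus. The level was 2.41-fold higher in the ovary (log2 difference -1.27 ± 0.14 (SE), adjusted p = 4.6e-06), and without the OT1 mouse the log2 difference was -1.40.

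Prdx2, the cytosolic peroxiredoxin that is also abundant in red blood cells, was 1.85-fold higher in the ovary (log2 difference -0.89 ± 0.10 (SE), adjusted p = 1.1e-05, and -0.99 without the OT1 mouse). Its ovary values were 249.2, 237.2 and 245.2 FPKM in OC1 to OC3 and 196.9, 264.4, 240.8 and 228.9 in OT1 to OT4. In the uterus it was at 132.7, 120.2 and 100.6 in OC1 to OC3 and at 185.7, 127.1, 133.6 and 125.7 in OT1 to OT4. The organs did not overlap for Prdx2 and Prdx3, as was the case, with all 7 ovaries above all 7 uteruses, for 13.5% of tested genes. Summed erythroid markers ranged from 176 to 695 FPKM in the ovaries and from 137 to 1233 in the uteruses, with the highest value in the OT1 uterus, and their part in the Prdx2 level was not tested.

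Prdx1, the most abundant member, was 1.52-fold higher in the ovary (log2 difference -0.61 ± 0.11 (SE), adjusted p = 0.00054). Ovary values were 320.6, 320.3 and 337.0 FPKM in OC1 to OC3 and 295.9, 354.9, 314.6 and 311.8 in OT1 to OT4. Uterus values were 201.9, 190.6 and 201.2 in OC1 to OC3 and 329.8, 215.4, 195.5 and 187.1 in OT1 to OT4. The OT1 uterus alone reached the range of the ovaries, and the ovary was higher in 6 of 7 mice. Without the OT1 mouse the log2 difference was -0.72.

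Prdx6 was lower in the uterus by a smaller step (log2 difference -0.29 ± 0.10 (SE), adjusted p = 0.033), with the ovary higher in 7 of 7 mice. This call was lost without OC1, OC2, OC3, OT2 or OT4, where the adjusted p lay between 0.0534 and 0.0988, and it held without OT1 (-0.33). Txn1 did not pass (log2 difference -0.21 ± 0.11 (SE), adjusted p = 0.12), although the ovary was higher in 6 of 7 mice. Without the OT1 mouse the Txn1 difference was -0.30 with an adjusted p of 0.0090, so that it then passed.

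Prdx4, the peroxiredoxin of the endoplasmic reticulum, was higher in the uterus (log2 difference 0.34 ± 0.09 (SE), adjusted p = 0.0062, and 0.26 without the OT1 mouse). It measured 39.5, 42.1 and 40.3 FPKM in the OC ovaries and 33.9, 35.2, 42.8 and 39.8 in the OT ovaries. In the uterus it measured 47.8, 43.5 and 43.8 in OC and 68.5, 53.7, 55.3 and 44.3 in OT. All uteruses were above all ovaries, a separation seen in 11.5% of tested genes, but the lowest uterus and the highest ovary were less than 1 FPKM apart.

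Prdx5, which has the broadest distribution among cell compartments, was higher in the uterus in 6 of 7 mice (log2 difference 0.35 ± 0.11 (SE), adjusted p = 0.018). The call was lost without OC2 (adjusted p = 0.0507) or OC3 (adjusted p = 0.0972). Txn2, the mitochondrial thioredoxin, was higher in the uterus in 7 of 7 mice (log2 difference 0.48 ± 0.12 (SE), adjusted p = 0.0041). Without the OT1 mouse the log2 differences were 0.26 for Prdx5 and 0.45 for Txn2.

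**Figure D2:**
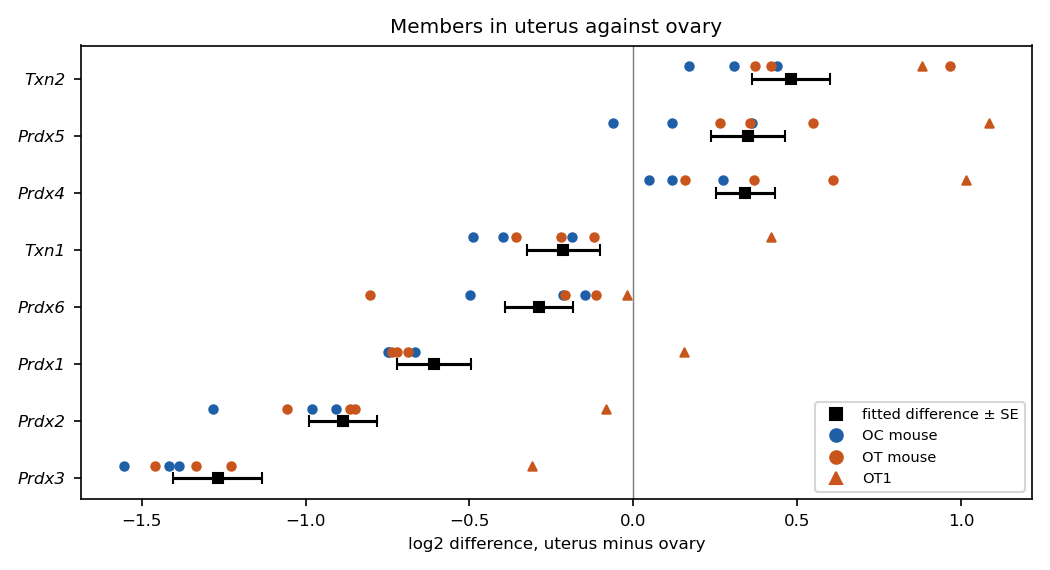
Log2 difference of uterus minus ovary (x axis) for each member, with the limma estimate and its SE as black squares and each mouse as a coloured point, OT1 as a triangle. Prdx3, Prdx2 and Prdx1 lie to the left of 0 and Prdx4, Prdx5 and Txn2 to the right, and the OT1 mouse is the rightmost or next to rightmost point in each row.

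The scale matters for the members higher in the uterus, because the total FPKM differed between the organs. Rescaling each library to the same total (TPM) moved the median log2 difference of all genes from -0.004 to -0.24, and the calls over all genes from 3798 higher and 3900 lower to 2344 higher and 6295 lower. The differences of Prdx4 (0.10), Prdx5 (0.11) and Txn2 (0.24) kept their sign but no longer passed, so 0 members were called higher in the uterus at an adjusted p under 0.05 in limma, where Txn2 alone had an unadjusted p under 0.05. Prdx1 to Prdx3, Prdx6 and Txn1 were then called lower, with log2 differences from -1.51 (Prdx3) to -0.45 (Txn1).

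The make-up of the peroxiredoxin pool does not depend on the total of a library. The summed FPKM of the 6 peroxiredoxins was 807 to 958 in the ovaries and 538 to 927 in the uteruses. Prdx3 made up 15.5% ± 1.03 (SD, n = 7) of this sum for the ovary and 9.43% ± 1.02 for the uterus, and Prdx2 made up 26.9% ± 1.22 and 21.4% ± 1.73. The shares of Prdx5 went the other way, 9.09% ± 0.788 for the ovary and 17.0% ± 1.41 for the uterus, as did those of Prdx4, 4.45% ± 0.402 and 8.27% ± 0.601. For each of these 4 shares the organs did not overlap. With the organs paired by mouse, each share moved the same way in 7 of 7 mice (exact sign-flip permutation test, two-sided, p = 0.0156, the smallest that 7 mice allow, adjusted p = 0.0208 over 8 measures). Shares that do not overlap between the organs must give that smallest p, so the test adds nothing to the separation. The shares were also chosen for testing after the data had been seen, and as parts of one sum they do not move independently.

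Prdx1 held a similar part of the pool in both organs, 36.6% ± 0.649 and 34.96% ± 1.76, a difference of -1.63 percentage points that was below 0 in 6 of 7 mice (exact sign-flip permutation test, adjusted p = 0.0357). Prdx6 held 7.47% ± 0.554 for the ovary and 8.92% ± 1.55 for the uterus, with a higher share in the uterus of 5 of 7 mice, and did not pass (exact sign-flip permutation test, adjusted p = 0.0938). Among the thioredoxins, the Txn1 share was 72.8% ± 2.26 for the ovary and 62.3% ± 1.97 for the uterus. The ratio of summed peroxiredoxin to summed thioredoxin was 6.00 ± 0.426 for the ovary and 4.08 ± 0.407 for the uterus. Both of these measures were higher in the ovary of 7 of 7 mice (exact sign-flip permutation test, adjusted p = 0.0208 each). Neither overlapped between the organs, so their unadjusted p was likewise bound to be the smallest, with or without the OT1 mouse. Without the OT1 mouse the 4 shares, the Txn1 share and the ratio still passed (adjusted p = 0.0417 each, exact sign-flip permutation test over 6 mice), and the Prdx1 and Prdx6 shares did not (adjusted p = 0.0625 each).

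**Figure D3:**
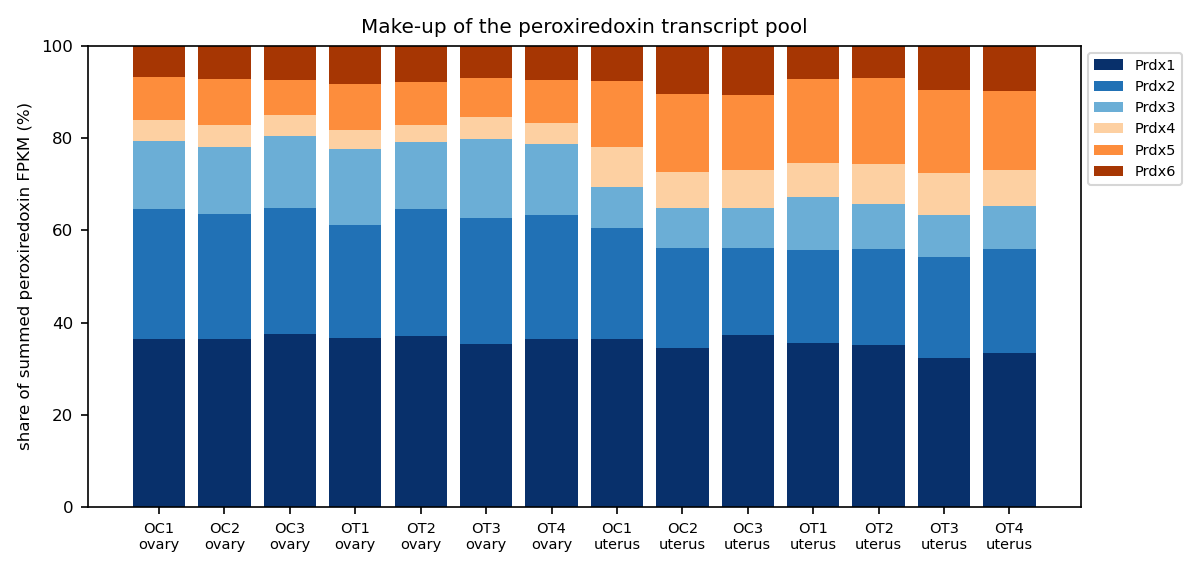
Share of each peroxiredoxin in the summed peroxiredoxin FPKM (y axis, percent) of the 14 libraries. Prdx2 and Prdx3 (lighter blues) take more of each ovary bar, and Prdx4 and Prdx5 (light shades of orange) more of each uterus bar.

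The organ labels were checked against markers. The sum of 16 ovary markers was 5601 to 7108 FPKM in the ovaries and 9.68 to 26.5 in the uteruses, and Cyp11a1, which starts steroid synthesis, was at 2456 to 3148 and at 0.665 to 3.31. The sum of 14 uterus markers was 5638 to 6750 FPKM in the OC uteruses, 6917 to 10506 in the OT uteruses and 667 to 2034 in the ovaries. Hoxa10, which patterns the uterus, was at 137.9 to 236.2 FPKM in the uteruses, but some ovaries also held it, up to 53.4 FPKM in OC2, with 0.572 in OT1. The part of uterine tissue in the ovary libraries was not tested.

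In the ovary, AMSC-CM was followed by no detectable change in any member. The 8 log2 differences of OT minus OC ran from -0.11 (Prdx4) to 0.08 (Prdx6), 5 above 0 and 3 below, with a median of 0.02 against -0.01 for all 14415 genes. In limma 0 members had an unadjusted p of at most 0.05 (0.27 to 0.81, adjusted p 0.997 to 0.998), against 4.51% of all genes. None passed the study's cutoffs of at least 2-fold with an unadjusted p of at most 0.05, against 0.451% of all genes.

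The ovarian groups overlapped for all 8 members. The SEs of 0.07 to 0.10 on the log2 scale give the precision of these comparisons. Prdx5 measured 82.8, 86.2 and 68.7 FPKM in OC and 79.2, 88.3, 74.6 and 79.4 in OT, and Prdx6 measured 59.5, 64.5 and 66.4 in OC and 68.0, 76.0, 62.5 and 63.3 in OT. Txn1, which binds and holds back the kinase Ask1 when reduced, measured 104.8, 104.7 and 106.6 in OC and 106.2, 107.3, 118.9 and 101.1 in OT. Txn2 measured 40.9, 37.3 and 40.1 in OC and 46.1, 36.3, 37.0 and 41.5 in OT. In none of these did OT libraries lie on one side of the OC libraries. None of the pool measures passed a test (exact permutation tests over 35 splits, adjusted p from 0.838 to 1).

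In the uterus, all 8 differences of OT minus OC were above 0 as deposited, with Prdx6 below 0 after TPM scaling, without OC1, without OT1 and with either covariate described below, and none passed a test. The log2 differences were 0.45 (Prdx5), 0.44 (Prdx3), 0.38 (Txn2), 0.33 (Txn1), 0.28 (Prdx4), 0.27 (Prdx2), 0.19 (Prdx1) and 0.09 (Prdx6), with a median of 0.31 against 0.01 for all 14151 genes, of which 51.1% were above 0. In limma 0 members had an unadjusted p of at most 0.05, against 8.2% of all genes, and 0 passed the cutoffs, against 2.9% of all genes. The adjusted p lay between 0.599 and 0.873.

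Prdx5 came nearest to the threshold. It measured 79.2, 93.5 and 88.3 FPKM in the OC uteruses and 168.2, 113.0, 109.2 and 95.5 in the OT uteruses. All 4 OT uteruses were above all 3 OC uteruses, by a step of 2 FPKM at the closest. The log2 difference was 0.45 ± 0.20 (SE) with a limma p of 0.052 and an adjusted p of 0.599. Without OT1 it was 0.28 with a limma p of 0.037 and an adjusted p of 0.485.

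Prdx3 was the other member whose groups did not overlap. The 3 OC uteruses lay between 47.4 and 49.5 FPKM, OT2 to OT4 between 51.6 and 59.5, and OT1 at 107.5. The log2 difference was 0.44 ± 0.25 (SE) with an adjusted p of 0.625 in limma, and 0.20 without OT1, with an adjusted p of 0.558. For both genes the exact permutation test gave p = 0.057, the smallest that 3 against 4 libraries allow. Groups that do not overlap are bound to give it. Of all tested genes, 6.46% had every OT uterus above every OC uterus.

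The shares of the same pair in the pool were above those of every OC uterus in each OT uterus. The Prdx5 share was 14.3%, 16.9% and 16.4% in OC1 to OC3 and 18.1%, 18.5%, 18% and 17.1% in OT1 to OT4. The Prdx3 share was 8.95%, 8.60% and 8.80% in OC and 11.6%, 9.72%, 9.11% and 9.23% in OT. The groups did not overlap in either share (exact permutation p = 0.057 each, adjusted p = 0.229 over 8 measures). Groups that do not overlap must give that p, so the test adds nothing to the separation. The shares are built from the same FPKM as the levels above and are no separate support. OT1 was the highest library for the Prdx3 share and not for the Prdx5 share.

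The thioredoxins of the uterus overlapped between the groups. Txn1 measured 92.0, 79.5 and 75.8 FPKM in OC and 142.1, 92.1, 109.4 and 78.9 in OT (log2 difference 0.33 ± 0.20, SE). Txn2 measured 55.5, 46.1 and 45.2 in OC and 85.1, 48.6, 72.3 and 53.7 in OT (0.38 ± 0.21, SE). Without OT1 the log2 differences were 0.17 for Txn1 and 0.23 for Txn2. OT1 and OT3 were high for both, and the other OT uteruses lay within or near the OC range.

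Prdx6 had the smallest difference in the uterus. It measured 42.1, 58.2 and 57.2 FPKM in OC and 67.1, 43.5, 57.8 and 54.8 in OT, and OT2 lay below all but one OC uterus (log2 difference 0.09 ± 0.19, SE).

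**Figure D4:**
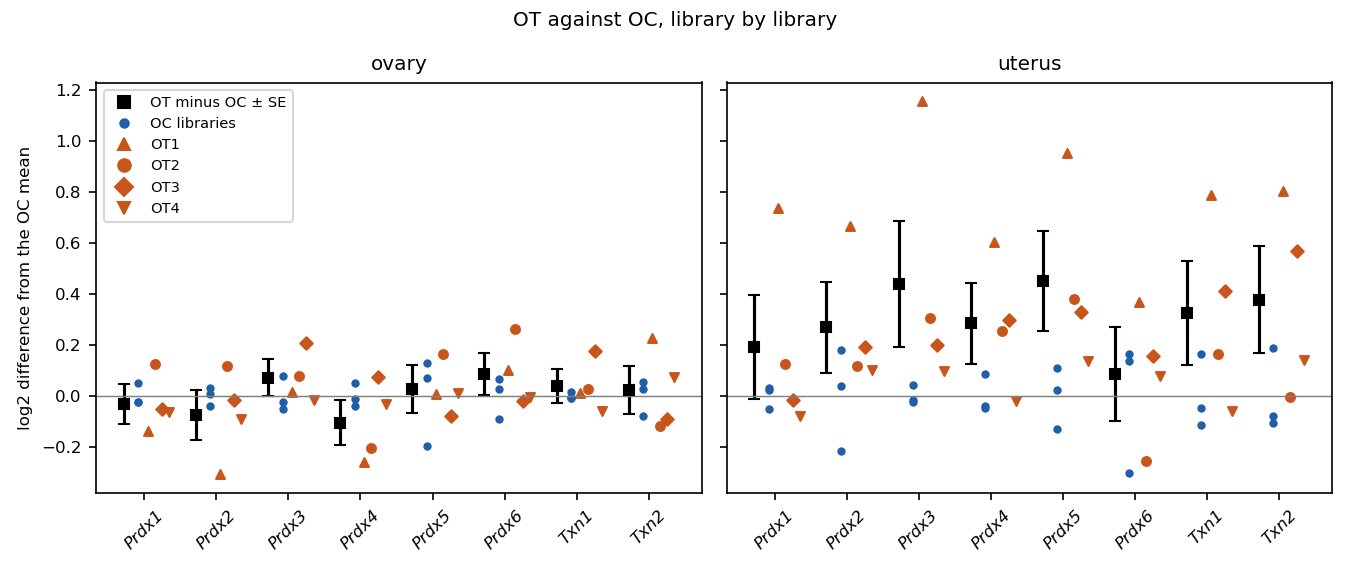
Log2 difference of each library from the OC mean of its tissue (y axis) for the 8 members, ovary left and uterus right, with OC libraries in blue, OT libraries in orange by mouse and the limma difference of OT minus OC with its SE as black squares. The ovary points stay near 0, and in the uterus the OT1 triangles are the highest for every member.

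One library carried much of the uterine differences. OT1 was the highest uterus for all 8 members, 0.37 (Prdx6) to 1.16 (Prdx3) above the OC mean on the log2 scale, with a median of 0.76. The median over the members was 0.14 in OT2, 0.25 in OT3 and 0.09 in OT4. Without OT1 the differences of the members had a median of 0.17, from -0.01 (Prdx6) to 0.28 (Prdx5). Those of Prdx1, Prdx2 and Prdx4 were 0.01, 0.14 and 0.18. In that fit Prdx5 was the 1 member with an unadjusted limma p of at most 0.05, against 9.58% of all genes.

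Transcript length moved with the same library. All members have a median transcript length under 2000 bases, from 661 (Prdx1) to 1673 (Prdx6). Among genes of at least 10 FPKM in the uterus, those under 2000 bases had a median log2 difference of 0.12 with 67.5% above 0, and longer genes had -0.04 with 42.6% above 0. Without OT1 these values were 0.05 with 59.0% and -0.02 with 46.1%. In the ovary the values were -0.02 with 44.0% and -0.02 with 41.7%. Every member stood above the median of its length class in OT1. With the length trend of each library removed, an alternative chosen after the data had been seen, the median of the members was 0.21 and that of Prdx5 0.33, with an unadjusted limma p of 0.049 and an adjusted p of 0.601. The part of the length trend in the members' differences was otherwise not tested.

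**Figure D5:**
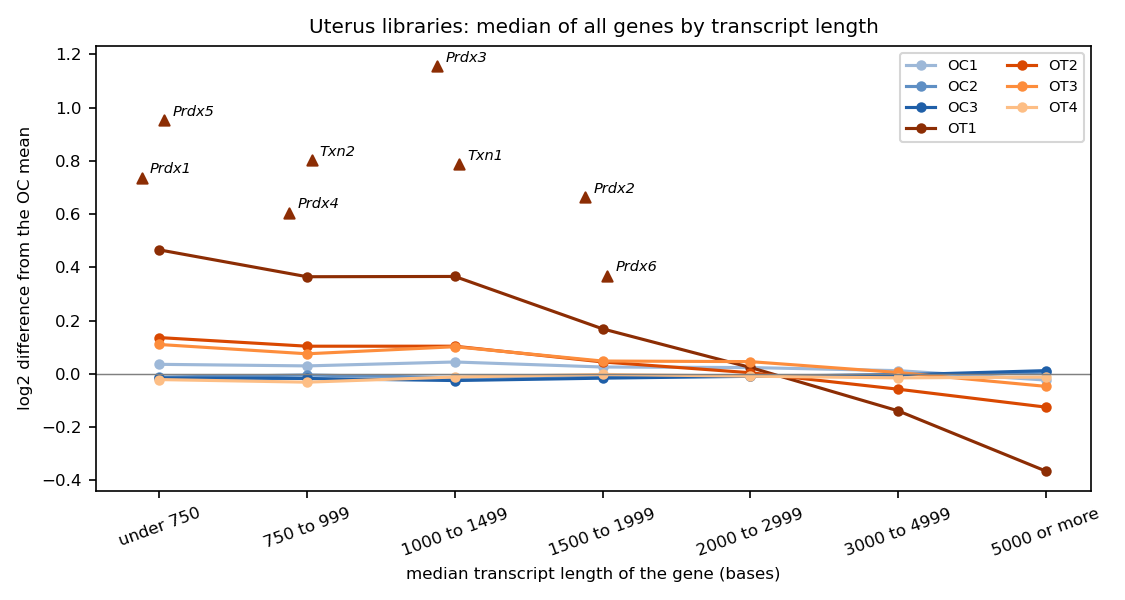
Median log2 difference from the OC mean (y axis) of all uterus genes averaging 10 FPKM or more, by median transcript length (x axis, bases), one line a library, with the 8 members in OT1 as labelled triangles. The OT1 line falls from 0.47 for the shortest genes to -0.37 for the longest, and all 8 triangles lie above it.

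Markers of fat moved with the groups as well. The sum of 19 adipocyte markers was 179 to 500 FPKM in the OC uteruses and 2139 to 18368 in the OT uteruses, highest in OT1. There 19 of 19 passed the cutoffs as higher, against 2.9% of all genes in either direction. For 18 of 19 every OT uterus was above every OC uterus, against 6.46% of all genes. In the ovaries the sum was 364 to 534 in OC and 443 to 2942 in OT, with 10 of 19 past the cutoffs, against 0.451% of all genes. Without OT1, 17 of 19 were past the cutoffs in the uterus and 5 of 19 in the ovary. Of 7 brown adipocyte markers, summed to 5.35 to 8.11 FPKM in the OC uteruses and 5.99 to 11.0 in OT2 to OT4, the sum was 712 in OT1 and Zic1 was at 0 in all.

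Other cell types differed too. The sum of 14 uterus markers did not overlap between the groups of uteruses, at 5638 to 6750 FPKM in OC and 6917 to 10506 in OT, the highest in OT3. The single markers did not move together, with a median log2 difference of -0.11 (0.11 without OT1). Hoxa10 was lower in every OT uterus, at 137.9 to 185.8 FPKM against 214.3 to 236.2 in OC. Of the 14 markers 4 were higher and 2 lower at an unadjusted limma p of at most 0.05, against 8.2% of all genes in either direction. Of the higher ones 1 was past the cutoffs, and without OT1 5 were higher and 2 lower. In 4 of 14, every OT uterus was above every OC uterus, against 6.46% of all genes. The part of these marker differences in the members' differences was not tested. The sum of 16 stratified epithelium markers was 3.72 to 17.2 FPKM in the OC uteruses and 73.0 to 983 in the OT uteruses. Of these, 11 of the 13 tested were past the cutoffs, against 2.9% of all genes, and Sprr1b and Sprr3 were at 0. The sum of 10 macrophage markers was 381 to 442 in OC and 448 to 1414 in OT uteruses, with 1 past the cutoffs. At an unadjusted limma p of at most 0.05, 4 of the 10 were higher there (3 without OT1), against 8.2% of all genes. In the ovaries the macrophage sum was 312 to 418 in OC and 407 to 598 in OT, with 0 past the cutoffs. At that p 5 were higher in the ovaries (7 without OT1), against 4.51% of all genes. The sum of 8 erythroid markers was 137 to 284 in OC and 179 to 1233 in OT uteruses, with 0 of the 5 tested past the cutoffs or at an unadjusted limma p of at most 0.05. In the ovaries the brown adipocyte sum was 11.5 to 12.1 in OC and 12.9 to 14.5 in OT, the stratified epithelium sum 8.56 to 9.69 and 5.50 to 18.6, and the erythroid sum 176 to 242 and 195 to 695. Only 3 brown adipocyte, 2 stratified epithelium and 5 erythroid markers passed the filter on low values there. None of these was past the cutoffs or at an unadjusted limma p of at most 0.05. Without OT1, 3 of the 5 erythroid markers were higher in the OT ovaries at that p, against 4.09% of all genes in either direction. With the adipocyte marker level as a covariate, all 8 member differences in the uterus were below 0, from -0.57 (Prdx6, adjusted p of 0.814 in limma) to -0.08 (Prdx4). With the stratified epithelium level as a covariate Prdx6 was at -0.29. The groups do not overlap in either marker level, so treatment and marker level cannot be told apart in these libraries.

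The differences of both organs were compared directly in a fit of all 14 libraries. The uterine difference exceeded the ovarian one for all 8 members, by a median of 0.35 against 0.02 for all genes. The members share their libraries, so these 8 signs are not independent. The excess was 0.42 ± 0.23 (SE) for Prdx5, 0.39 ± 0.18 for Prdx4 and 0.37 ± 0.27 for Prdx3, with unadjusted limma p of 0.083, 0.0504 and 0.197. In this comparison 0 members had an unadjusted p of at most 0.05, against 5.12% of all genes, and the adjusted p were 0.844 or more. Without OT1 the values of these 3 genes were 0.25, 0.23 and 0.11. A difference of response between the organs was not detected for any member in this fit.

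The levels of the members were also compared with each other across libraries. Over the 28 pairs of members, the Pearson correlation of log2 levels across the 7 uteruses had a median of 0.86 (0.31 to 0.97), and across the 7 ovaries a median of 0.07 (-0.82 to 0.90). Leaving out the OT1 uterus brought the uterine median to 0.44 (-0.70 to 0.92). These values describe libraries that share their scaling and length trend, and the difference was not tested.

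The genes most like each member were sought among 12825 genes over 14 libraries, by the Pearson correlation of log2 levels with each tissue centred, and the correlation without centring is given after it. Prdx1 was most like Aurkaip1 (0.98 and 0.87) and Ppia (0.98 and 0.65), and Prdx2 like Pmvk (0.93 and 0.90) and Avpi1 (0.93 and 0.97). For Prdx3 these were Echs1 (0.98 and 0.89) and Cops3 (0.98 and 0.49), and for Prdx4 Uqcrh (0.96 and 0.92) and Klhl4 (0.95 and 0.89). Prdx5 was most like Nr3c1 (0.96 and 0.97) and Mgst1 (0.95 and 0.03), and Prdx6 like Apcdd1 (0.92 and 0.89) and B3glct (0.89 and 0.58). For Txn1 they were Nsdhl (0.97 and 0.77) and Cnih1 (0.96 and 0.51), and for Txn2 Ppp5c (0.98 and 0.97) and Tenm4 (0.97 and -0.21). The OT1 uterus is a far point in these centred levels, and the values are descriptions.

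The partners of the members were examined in 4 lists. In the thioredoxin system (13 measured identifiers, with Nnt under 2 of them, among which are the reductases, Txnip and the glutaredoxins), 0 passed in the ovary, against 4.51% of all genes, and 1 was higher in the OT uterus at an unadjusted limma p of at most 0.05, against 8.2% of all genes. This was Txnrd3, a thioredoxin reductase best known from testis, which was at 2.91 to 3.13 FPKM in OC and 3.29 to 5.98 in OT (log2 difference 0.55 ± 0.23, SE). Without OT1 its difference was 0.40 with an unadjusted limma p of 0.075, and the 1 identifier that then passed was one of Nnt (0.61). The other Nnt identifier, with a uterine mean of 14.3 FPKM against 4.40, went the other way (-0.17, unadjusted limma p of 0.286). Over all mice the median of the list was -0.04 for the ovary and 0.22 for the uterus. Txndc17, a thioredoxin-related protein gene, and Nxn, both among the 3 most abundant of the list with Txnip, differed by 0.31 ± 0.16 (SE) and 0.26 ± 0.18. Txnrd1, the cytosolic reductase that serves Txn1, had a log2 difference of -0.20 ± 0.15 (SE) in the uterus, and Txnip, which binds and inhibits thioredoxin, one of -0.27 ± 0.31.

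Among 9 genes of peroxiredoxin repair and regulation, 0 passed in either organ at an unadjusted limma p of at most 0.05 and the medians were 0.01 and -0.04. Without OT1, Sesn3 passed as lower in the uterus (-0.29). Srxn1, the sulfiredoxin that repairs overoxidised peroxiredoxins, differed by 0.23 ± 0.18 (SE) in the uterus, and Nfe2l2, which encodes Nrf2, by -0.04 ± 0.16. Gstp1, a glutathione transferase that reactivates Prdx6, differed by 0.28 ± 0.20 and Sesn1 by -0.10 ± 0.18, and these are with Nfe2l2 the most abundant genes of the list. Of 10 thioredoxin clients, 0 passed in the ovary, against 4.51% of all genes, and 3 were higher in the OT uterus, against 8.2%. These were 3 of the 4 methionine sulfoxide reductases of the list, and the remaining one, Msrb2, differed by 0.03 ± 0.20 (SE). Msra was at 7.09 to 8.75 FPKM in OC and 9.35 to 24.02 in OT (log2 difference 0.83 ± 0.29, SE), Msrb1 at 134.6 to 152.1 and 149.4 to 253.1 (0.49 ± 0.20), and Msrb3 at 75.9 to 80.1 and 90.3 to 130.5 (0.39 ± 0.15). Without OT1, Msra (0.58) and Msrb3 (0.39) still passed and Msrb1 (0.37) did not, and the median of the clients was 0.10. Apex1, the remaining one of the 3 most abundant clients, differed by 0.11 ± 0.17. The clients' medians were 0.01 for the ovary and 0.18 for the uterus.

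Of 10 partners of Prdx4 in oxidative folding, 2 were lower in the OT ovary and 0 passed in the uterus, against 4.51% and 8.2% of all genes in either direction. Pdia6, a disulfide isomerase, was at 135.1 to 149.8 FPKM in OC and 119.0 to 132.2 in OT ovaries (log2 difference -0.17 ± 0.07, SE), and Ero1lb, an oxidase of the endoplasmic reticulum, at 9.63 to 11.0 and 7.71 to 9.89 (-0.27 ± 0.11). Leaving out OT1, these ovarian calls were lost, with unadjusted limma p of 0.052 for Pdia6 and 0.076 for Ero1lb. The 2 partners then lower in the ovary were others, Pdia3 (-0.15) and Gpx7 (-0.18), and 1 was lower in the uterus, Pdia6 (-0.31). In the uterus of all mice P4hb differed by 0.08 ± 0.14 (SE), Pdia3 by -0.02 ± 0.15 and Pdia6 by -0.13 ± 0.22. The medians were -0.13 for the ovary and 0.04 for the uterus. None of these calls in the 4 lists passed the 2-fold cutoff or an adjusted p under 0.05.

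Between the organs genes of all 4 lists differed, in shares close to those of all genes. Over the lists, 10 of 42 were higher in the uterus and 12 lower at an adjusted p under 0.05, against 26.1% and 26.8% of all genes. Leaving out OT1 gave 11 higher and 13 lower, against 29.5% and 30.2%. These calls hold for the scale as deposited. TPM scaling moved the median of all genes from -0.004 to -0.24, and the list genes are not given on that scale. In the thioredoxin system 4 of 13 were higher in the uterus at an adjusted p under 0.05 and 2 were lower. The higher ones were Nxn, a nucleoredoxin of the thioredoxin family (log2 difference 1.16), Txnip (0.72), and the glutaredoxins Glrx3 (0.48) and Glrx2 (0.46), and the lower ones were Txnrd1 (-0.64), which keeps Txn1 reduced, and Txnl1 (-0.67). In repair and regulation 2 of 9 were higher, Sesn1 (0.55), a stress-induced sestrin, and the kinase gene Abl1 (0.30), and 3 were lower, Srxn1 (-0.70), Nfe2l2 (-0.37) and Keap1 (-0.20), whose product holds Nrf2 back.

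Among the clients 3 of 10 were higher and 3 lower. The higher ones were the methionine sulfoxide reductases Msrb1 (log2 difference 1.89), Msrb3 (1.37) and Msrb2 (0.57), and the lower ones were the repair endonuclease gene Apex1 (-0.58), Ppat (-0.57), which starts purine synthesis, and the ribonucleotide reductase subunit gene Rrm2 (-0.52). Of the 10 Prdx4 partners 1 was higher, Gpx8 (0.70), a peroxidase of the endoplasmic reticulum, and 4 were lower, the disulfide isomerase genes Pdia4 (-1.08), Pdia6 (-0.49) and Pdia3 (-0.23) and the oxidase gene Ero1lb (-0.78). P4hb, the most abundant disulfide isomerase gene of the list, was at 287.7 ± 13.4 FPKM (SD, n = 7) in ovaries and 264.1 ± 28.3 in uteruses, and its difference did not pass (-0.14). In the comparison of the treatment differences between organs, 4 of the 42 identifiers in the lists had an unadjusted limma p of at most 0.05, against 5.12% of all genes. They were Msra (0.78), Ero1l (0.54), Txndc17 (0.41) and Sesn2 (-0.60), with adjusted p of 0.844 each, and without OT1 Msra, Txndc17 and Sesn3 passed at that threshold.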

How the data were processed

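Deposited values were FPKM per gene in 14 libraries, which the authors made from stranded, rRNA-depleted libraries with Skewer 0.2.2, STAR 2.5 on mm10 and Cufflinks 2.2.1. FPKM carries no sequencing depth, which is therefore unknown here, and the count-based Cuffdiff test was not run. Here log2(FPKM + 0.1) was fitted with limma 3.58.1 in R 4.3.3 (eBayes with a trend) for genes averaging 0.5 FPKM or more, without further scaling, and p-values were adjusted by Benjamini-Hochberg over all tested genes. Fold changes on this scale understate those of low genes. Single values were compared with two-sided exact permutation tests, between organs by flipping signs within mice, and the shares of the pool were chosen for testing after the data had been seen. Libraries were grouped by their labels, and replicates of a group were taken as separate mice. The main fits of all 14 libraries held no term for the mouse, so they did not use the pairing of organs.

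All 21853 identifiers matched GENCODE M21, although the study's methods name UCSC gene models. The members, lists and tests were chosen with earlier results of these data known. Named genes were all 8 members, list genes with an unadjusted p of at most 0.05 in a contrast or among the 3 most abundant of their list, and the 2 most alike genes per member. The uterine values of Txnrd1 and Srxn1 were added for their role beside the members. OC and OT libraries of one number stem from different mice. Their deviations from the group means correlated at 0.33, 0.04 and 0.08 for ovaries and at 0.08, 0.001 and -0.03 for uteruses, so the number was not used to pair them. Ovary and uterus deviations of one number correlated at 0.07 to 0.25, and those of different numbers within a group at -0.24 to 0.25. The pairing of organs by number was thus taken from the labels and not established by these values. Alternatives covered pseudocounts, filters, scalings, covariates, the replicate block and leaving out each mouse. Scripts were tested on simulated data and run in Python 3.11.15 with pandas 2.3.3.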

Additional observations from a re-analysis of the deposited data

Results flagged for a closer look

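In 2 of the 16 groups of 4 OT libraries tested, one for each member and tissue, a single library stood apart from the other 3 by Dixon's test. Chance alone flags about 1 independent group in 20. These groups are not independent, because the members of a tissue were measured in the same libraries. Their log2 levels correlated at a median of 0.86 across the uteruses. The number of flags therefore cannot be weighed against that rate. Prdx2 measured 185.7 FPKM in the OT1 uterus, and its gap to the next library was 0.869 of the range of the group. Prdx3 measured 107.5 FPKM in the same library, with a gap of 0.858 of the range. The OT1 uterus was also the library with the highest total FPKM, the steepest length trend and the brown fat transcripts, and the part of these in either value was not tested.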

How the results depend on the processing

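Without read counts, small differences cannot be weighed against depth, and 3 against 4 libraries cannot reach an exact permutation p below 0.057. The number of members called higher in the OT uterus (0) became 5 with the replicate block, which leaves out OT4. These were Prdx3 (0.55), Prdx4 (0.39), Prdx5 (0.55), Txn1 (0.46) and Txn2 (0.46). Within a tissue this block joins OC and OT libraries of one number, which stem from different mice, so it is not a true pairing. The number became 4 in a fit of all 14 libraries and 1 with the length trend removed. The fit of all 14 libraries uses the same estimate of the spread for both organs, although the members varied more among uteruses. It left the differences as they were, with Prdx3 at 0.44 and an unadjusted limma p of 0.039 against 0.113 in the main fit. The number called higher was 0 to 3 when 1 mouse was left out (1 without OT1, 1 without OT2, 3 without OT4). The number lower became 1 with the adipocyte covariate, which turned the uterine differences of Prdx1 (-0.42), Prdx2 (-0.15), Prdx3 (-0.40), Prdx4 (-0.084), Prdx5 (-0.25), Prdx6 (-0.57), Txn1 (-0.24) and Txn2 (-0.21) and their median (-0.24). Uterine Prdx6 also turned under TPM scaling (-0.0541), with the stratified epithelium covariate (-0.29) and without OC1 or OT1 (range without a replicate -0.0649 to 0.2002). TPM scaling moved the median uterine difference of all genes from 0.010 to -0.129 and the genes with an unadjusted limma p of at most 0.05 from 729 higher and 431 lower to 507 and 576. With the block these genes were 1372 higher and 904 lower, in the fit of all 14 libraries 1367 and 979, and without OT4 1129 and 678. Calls thus rose among all genes too in these settings. In the ovary the adipocyte covariate turned Prdx2 (0.0046), Prdx4 (0.0863), Prdx5 (-0.0238), Prdx6 (-0.0368), Txn2 (-0.0863) and the median (-0.0096). Leaving out a replicate spread the ovarian values of Prdx1 (-0.0843 to 0.003), Prdx2 (-0.1393 to 0.0023), Prdx5 (-0.0733 to 0.0903), Txn1 (-0.007 to 0.0709) and Txn2 (-0.0451 to 0.07) across 0, and 0 members passed in limma at an unadjusted p of at most 0.05. Between organs, TPM scaling left 0 members higher. The number of members whose uterine difference exceeded the ovarian one at that p (0) became 1 at a pseudocount of 0.01, 1 without a filter and 0 to 2 when a replicate was left out (1 without OT3, 2 without OT4), and the difference for Prdx6 turned under TPM scaling (-0.15), median-of-ratios scaling (-0.0013), with the length trend removed (-0.0457) and without a replicate (range -0.1038 to 0.1746). The causes were not tested. Between organs the replicate block is a term for each mouse, and it changed no call of a member there.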
